A study of Capra hircus with 2 samples.

Results

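The miRNAs described here are regulators of natural killer (NK) cells and other lymphocytes: the annotated goat miRNAs chi-miR-150, chi-miR-155, chi-miR-142, chi-miR-342 and chi-miR-181, with any letter and either arm (the prefix for goat is left out below). They were chosen by name, and the deposited table held 8 of them among its 590 mature miRNAs (314 annotated and 276 predicted). The 8 were miR-150, both arms of miR-155, both arms of miR-342, miR-181b-3p, miR-181c-5p and miR-181d. Small RNA was sequenced from NK cells of female goats, in 1 library of cells separated from the uterus (uNK) and 1 library of cells separated from peripheral blood (pNK). The labels name no treatment, age, breed, stage of cycle or pregnancy, sorting marker or number of animals for either library. With 1 library per group there is no replicate check, so differences between the groups carry no p-value of their own here.

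A mature miRNA is cut from the 5p or 3p arm of a hairpin and guides a silencing complex to messenger RNAs that pair with its seed. miR-150 is abundant in mature lymphocytes, represses the transcription factor MYB, and in mice promotes the maturation of NK cells. miR-155 is induced when lymphocytes are activated and, in human NK cells, raises interferon-gamma output by lowering the phosphatase SHIP1. The miR-181 family promotes human NK cell development and tunes T cell receptor signalling in mice. miR-342 is made from within the gene EVL and is high in blood leukocytes, and miR-142 is made by blood cells of most lineages. The values below are reads per 1000000 reads of the library (RPM), recomputed from the deposited counts. The intervals are exact 95% intervals that cover counting error only. They are Clopper-Pearson intervals, except where a ratio within a library is compared between the libraries. Those comparisons carry conditional intervals for an odds ratio.

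The lymphocyte miRNAs were lower in the uNK library apart from miR-181c-5p and miR-181d, which were higher. Summed, the 8 miRNAs reached 21785 RPM in the blood library and 438 RPM in the uterine one, a 49.7-fold difference that came mostly from miR-150. Without miR-150 the sum was 2733 against 406 RPM, 6.73-fold lower in uNK. By the direction in the authors' deposited table, 6 of the 8 were lower in uNK, and so were 62.0% of all listed miRNAs and 45.9% of the annotated ones. Higher in uNK were 2 of the 8, compared with 38.0% of all listed and 54.1% of the annotated miRNAs. The median log2 ratio of uNK over pNK was -2.89 over the 8, -2.20 over all listed miRNAs and 1.15 over the annotated ones. Of all listed miRNAs, 180 had 0 reads in uNK and 37 in pNK, and these entered at a floor of 3 reads. Among the annotated miRNAs, to which all 8 belong, 5 had 0 reads in uNK and 5 in pNK. The table lists only miRNAs that the authors called different, so every member had to differ, and a count over so few related arms says little beyond the single values. No row was listed for miR-142, and nothing is said of it here. Bulk values cannot tell fewer cells of a type from less of a miRNA per cell.

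**Figure D1:**
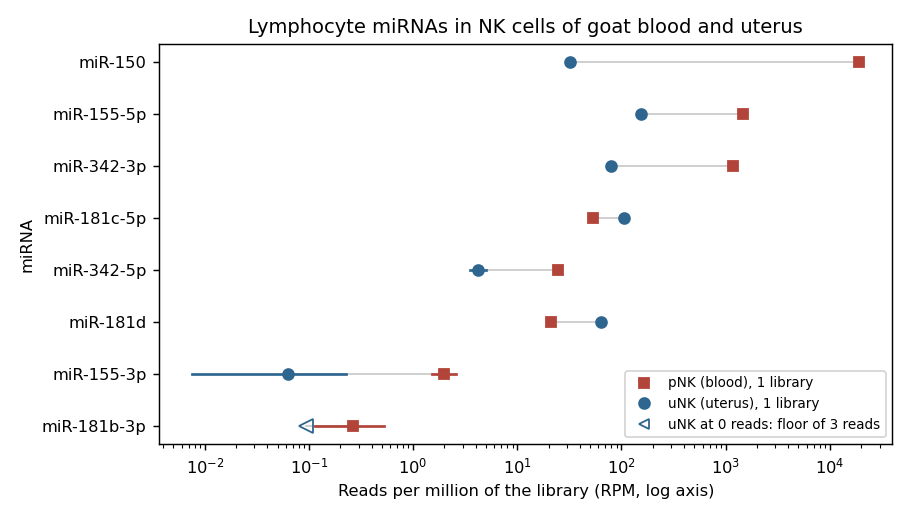
Level of each of the 8 miRNAs in the pNK library (squares) and the uNK library (circles), in RPM on a log axis, with 95% counting intervals where they are wider than the symbol. Squares lie to the right of circles except for miR-181c-5p and miR-181d; the open triangle marks 3 reads (0.0944 RPM) for miR-181b-3p, which had 0 reads in uNK.

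miR-150 had 572771 reads (19052 RPM) in pNK and 1023 reads (32.2 RPM) in uNK. It was the 6th most abundant of the 314 annotated miRNAs listed in the pNK library and the 124th in the uNK library. The level in uNK was 592-fold lower (557 to 629.9), the 2nd largest difference among the 144 annotated miRNAs that were lower there. miR-150 alone held 4.01% of the listed reads of pNK and 0.00861% of those of uNK.

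miR-155-5p, the main strand of the activation-induced miRNA, had 44005 reads (1464 RPM) in pNK and 4872 reads (153 RPM) in uNK. It was 9.55-fold lower in uNK (9.27 to 9.84) and moved from 29th to 70th place among the annotated miRNAs. Its fold was the 67th largest of the 144 lower ones, near the middle of that group, whereas miR-150 was at the far end. The passenger arm miR-155-3p had 60 reads (1.996 RPM) in pNK and 2 reads (0.0629 RPM) in uNK. The ratio was 31.7-fold lower in uNK with an interval of 8.41 to 268, so its size is poorly fixed by so few reads.

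Of the EVL-encoded miR-342, the more abundant 3p arm had 35128 reads (1168 RPM) in pNK and 2527 reads (79.5 RPM) in uNK. It was 14.7-fold lower in uNK (14.1 to 15.3), a larger difference than that of miR-155-5p beyond counting error. The 5p arm had 734 reads (24.4 RPM) in pNK and 134 reads (4.22 RPM) in uNK. It was 5.79-fold lower (4.81 to 7.01), and its interval did not reach that of the 3p arm.

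The miR-181 family had 3 listed rows that did not share a direction. miR-181c-5p had 1606 reads (53.4 RPM) in pNK and 3355 reads (106 RPM) in uNK, 1.98-fold higher in uNK (1.86 to 2.10). miR-181d had 629 reads (20.9 RPM) in pNK and 2008 reads (63.2 RPM) in uNK, 3.02-fold higher (2.76 to 3.31). Both differences were among the smaller ones, at 160th and 148th place by fold of the 170 annotated miRNAs that were higher in uNK. On the RPM scale the log2 ratio of miR-181c-5p was 0.98, against 1.33 in the authors' deposited table, which scales the libraries differently. miR-181b-3p had 8 reads (0.266 RPM) in pNK and 0 reads in uNK, for which the floor of 3 reads is 0.0944 RPM. Against that floor it was at least 2.82-fold lower, a bound that leaves out the counting error of the 8 reads. The counting intervals, 0.115 to 0.524 RPM in pNK and up to 0.116 RPM in uNK, touched, so the size of this difference is not fixed at this depth. The authors' deposited log2 ratio for it was -3.73, with 0.5 in place of the count of 0, beside -1.50 against the floor. The 5p strands of the family are known to be close in sequence, which was not checked here, so how reads were divided between miR-181c-5p and miR-181d is uncertain. miR-181a and miR-181b-5p had no row, and nothing is said of them. Summed, the 3 listed rows counted 2243 pNK and 5363 uNK reads and were 2.26-fold higher in uNK (2.15 to 2.38), a value set almost wholly by miR-181c-5p and miR-181d and not that of the whole family.

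**Figure D2:**
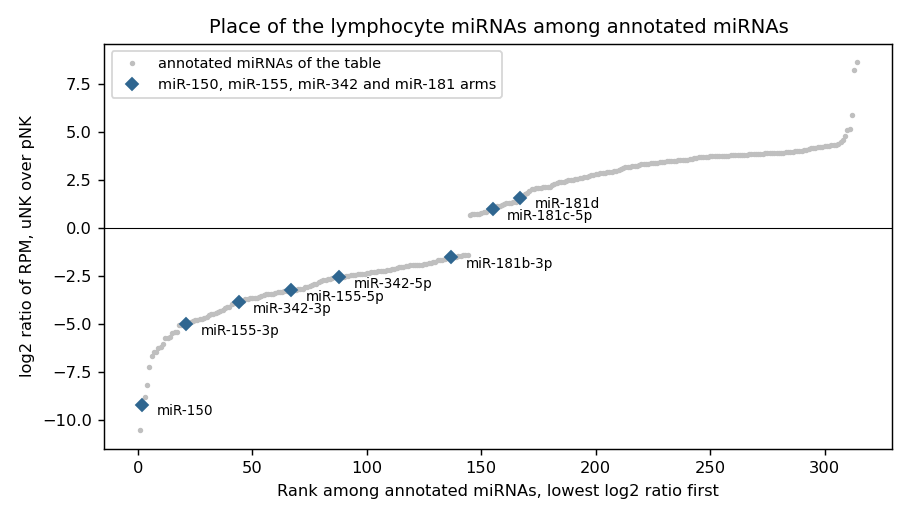
The 314 annotated miRNAs of the table in order of their log2 ratio of RPM, uNK over pNK (grey points), with the 8 lymphocyte miRNAs as labelled diamonds. miR-150 lies next to the lowest end at -9.21, miR-155-5p at -3.26 and miR-342-3p at -3.88 lie inside the lower group, and miR-181c-5p at 0.98 and miR-181d at 1.59 lie at the low end of the higher group; the gap around 0 comes from the authors' filter.

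The order of the levels differed between the libraries. In pNK the order was miR-150, miR-155-5p, miR-342-3p, miR-181c-5p, miR-342-5p, miR-181d, miR-155-3p and miR-181b-3p. Each neighbour in that order differed from the next beyond counting error, the closest being miR-342-5p over miR-181d at a ratio of 1.17 (1.05 to 1.30). In uNK the order was miR-155-5p, miR-181c-5p, miR-342-3p, miR-181d, miR-150, miR-342-5p, miR-155-3p and miR-181b-3p. There the last pair, with 2 and 0 reads, could not be separated, and the other neighbours differed beyond counting error. miR-150 thus stood first in blood and behind miR-342-3p, miR-155-5p and both abundant miR-181 members in the uterus.

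The make-up of these reads shifted accordingly. Of the 654941 reads of the 8 miRNAs in pNK, miR-150 took 87.5% (87.4 to 87.5), miR-155-5p 6.72% (6.66 to 6.78) and miR-342-3p 5.36% (5.31 to 5.42). miR-181c-5p and miR-181d took 0.245% and 0.0960% of them. Of the 13921 reads in uNK, miR-155-5p took 35.0% (34.2 to 35.8), miR-181c-5p 24.1% (23.4 to 24.8), miR-342-3p 18.2% (17.5 to 18.8) and miR-181d 14.4% (13.8 to 15.02). miR-150 took 7.35% (6.92 to 7.79) in that library. The 3 listed miR-181 rows together held 0.342% of these reads in pNK and 38.5% in uNK. These shares depend on the sum of the 8, which was 49.7-fold lower in uNK. Of all listed reads, miR-155-5p took 0.308% in pNK and 0.0410% in uNK and miR-342-3p 0.246% and 0.0213%, so both were lower in uNK on that basis. miR-181c-5p took 0.0112% and 0.0282% of all listed reads and miR-181d 0.00440% and 0.0169%, higher in uNK on either basis.

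**Figure D3:**
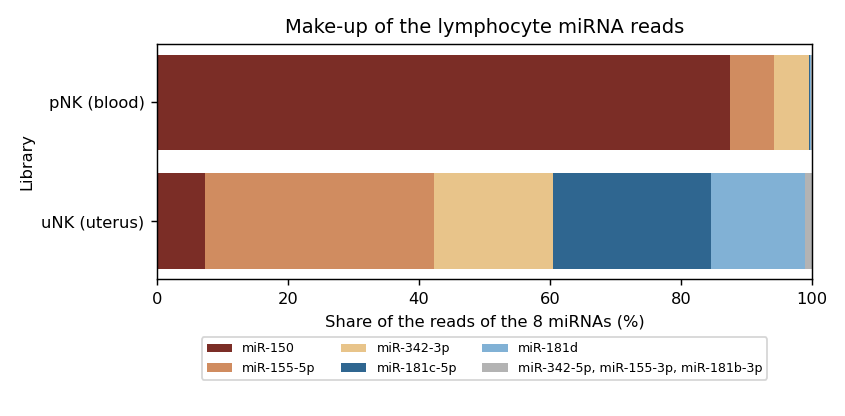
Share of the reads of the 8 miRNAs taken by each of them in the pNK library and the uNK library, in percent. miR-150 fills 87.5% of the pNK bar and 7.35% of the uNK bar, where miR-155-5p holds 35.0% and miR-181c-5p 24.1%.

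Ratios of 2 miRNAs within a library do not depend on how the libraries are scaled to each other, and were compared for 9 pairs chosen with the values known. There were 13.0 reads of miR-150 for each read of miR-155-5p in pNK (12.9 to 13.1) and 0.21 in uNK (0.196 to 0.225), a 62.0-fold difference (57.9 to 66.4). Against miR-342-3p, miR-150 stood at 16.3 in pNK and 0.405 in uNK, a 40.3-fold difference (37.4 to 43.4). The pair of miR-155-5p and miR-342-3p changed far less, from 1.25 to 1.93, and the ratio was 1.54-fold higher in uNK (1.46 to 1.62). miR-150 was thus the member that differed most from the other members that were lower in uNK. Against miR-181c-5p, miR-155-5p went from 27.4 in pNK to 1.45 in uNK, an 18.9-fold difference (17.6 to 20.2). miR-150 went from 357 to 0.305 against the same miRNA. There were 2.55 reads of miR-181c-5p per read of miR-181d in pNK and 1.67 in uNK, a 1.53-fold difference (1.37 to 1.70).

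The arms of a hairpin were compared in the same way. For miR-342 there were 47.9 reads of the 3p arm per read of the 5p arm in pNK (44.5 to 51.6) and 18.9 in uNK (15.8 to 22.6). The balance was 2.54-fold less in favour of the 3p arm in uNK (2.09 to 3.07). For miR-155 there were 733 reads of the 5p arm per read of the 3p arm in pNK (569.7 to 961) and 2436 in uNK (674 to 20121). With 2 reads of the 3p arm in uNK the difference was not detectable at this depth, since the interval of the 3.32-fold ratio between the libraries ran from 0.88 to 28.1.

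**Figure D4:**
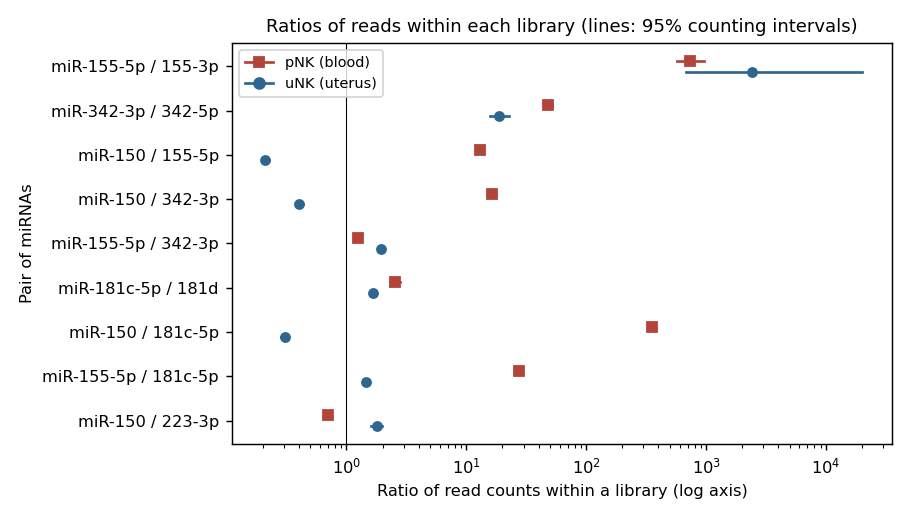
Ratio of read counts within each library for 9 pairs of miRNAs on a log axis, pNK as squares and uNK as circles, with 95% counting intervals as lines. The pairs of miR-150 with miR-155-5p, miR-342-3p and miR-181c-5p lie above 1 in pNK and below 1 in uNK, and the intervals of the 2 libraries overlap only for the arms of miR-155.

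The miRNAs most like miR-150 over these 2 libraries, by the log2 ratio among 253 other annotated miRNAs with at least 100 reads in the higher library, were miR-223-5p, miR-27a-5p and miR-223-3p. Their log2 ratios were -8.83, -8.16 and -10.56, beside -9.21 for miR-150, so the nearest lay 0.38 away and the third 1.35 away. Few miRNAs differed as much as miR-150 did. miR-155-5p, at -3.26, had close neighbours in miR-221-5p (-3.26), miR-1343 (-3.26) and miR-15b-3p (-3.25), as it lay in a densely filled range. Likeness over 2 libraries is a single ratio and carries no more than that.

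Other cell types' miRNAs differed between the same libraries, and their part in the values above was not tested. Both listed arms of miR-223, the main myeloid miRNA, were lower in uNK, from a sum of 28632 RPM in pNK to 21.1 RPM. For each read of miR-223-3p there were 0.699 reads of miR-150 in pNK (0.697 to 0.702) and 1.78 in uNK (1.61 to 1.98), so miR-223-3p differed more between the libraries than miR-150 did. miR-223-5p was 455-fold lower in uNK (373 to 561), less than miR-150. All 4 listed arms of the red cell miRNAs miR-451 and miR-144 were higher in uNK, from a sum of 3258 to 9817 RPM. They were led by miR-451-5p at 3251 and 9799.6 RPM. The interval of miR-451-3p (6 and 16 reads) included no difference. No row was listed for miR-486, which was also on the red cell list. The 11 listed stromal and smooth muscle arms were all higher, from 12890 to 191215 RPM, led by miR-143-3p at 11522 and 169065 RPM. The 5 listed epithelial miRNAs were all higher, in sum from 257 to 3592 RPM, led by miR-200b at 101 and 1578 RPM, and the 2 arms of endothelial miR-126 from 1769 to 10555 RPM, led by miR-126-3p at 1651 and 9887 RPM. None of these markers was at 0 in either library. Summed stromal reads thus exceeded the 8 lymphocyte miRNAs in uNK, and the reverse held in pNK only through miR-150. Without miR-150 the lymphocyte sum in pNK was 2733 RPM, below the stromal 12890 RPM.

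Among other miRNAs studied in NK cells of mice or humans, 33 arms were listed, of which 30 were lower and 3 higher in uNK, with a median log2 ratio of -3.31. Lower in uNK were thus 90.9% of the list, beside 62.0% of all listed and 45.9% of annotated miRNAs, whose medians were -2.20 and 1.15. The list was chosen with earlier results known. It holds both arms of several hairpins, among them the myeloid miR-223, so its rows are not separate units. The 3 with the most reads in pNK were miR-27a-3p, miR-223-3p and miR-16a-5p. miR-27a-3p had 46387 RPM in pNK and 9482 RPM in uNK, 4.89-fold lower (4.87 to 4.91). The other arm of its hairpin, miR-27a-5p, represses cytotoxic granule genes in human NK cells. miR-27a-5p stood at 208 and 0.724 RPM, 287-fold lower (191 to 453), with 23 reads in uNK. miR-16a-5p, of the miR-15/16 family that limits MYB in mouse NK cells, stood at 22492 and 1173 RPM, 19.2-fold lower (18.97 to 19.4). miR-223-3p, described above as a myeloid marker, stood at 27243 and 18.1 RPM, 1508-fold lower (1390 to 1640). The 3 arms that were higher in uNK were miR-29c-3p, miR-362-3p and miR-183, named after their values were seen. These had 44, 135 and 15 reads in pNK and 18741, 340 and 83 reads in uNK. The other arms of miR-29c and miR-362 went the opposite way. miR-29c-5p was 27.4-fold lower in uNK (22.3 to 34.2) and miR-362-5p 7.53-fold lower (6.86 to 8.28).

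All 6 genes of the listed members were found by symbol in RefSeq's goat gene table (assembly ARS1.2), which served only to see which genes lie beside each other, since the build behind the deposited table is not given in the sources used here. MIR181C and MIR181D are direct neighbours there, and miR-181c-5p and miR-181d were both higher in uNK. The next miRNA gene on the side of MIR181C, within 50 kb, is MIR23A, and miR-23a was lower in uNK. MIR342 lies inside EVL, and MIR181B lies inside NR6A1. No other miRNA gene lies within 50 kb of MIR150, MIR155, MIR181B or MIR342 in that table.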

How the data were processed

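Per the labels' protocols, Trizol was used to extract total RNA. For the kit, the aligner, the counter, the build and the source of the goat miRNA names, the entry is: not given in the sources used here. The deposited table holds read counts, RPM values, a log2 ratio of uNK over pNK, and p-values and q-values, per the file headers. The authors' filter left no absolute log2 ratio under 1.01 and no q-value above 0.000815; the deposited q-values were never above the p-values and were below them in 427 of 590 rows. The authors' log2 ratio is that of the counts, with 0.5 for a count of 0, plus 0.27.

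Dividing counts by RPM gave library depths of 30063449 reads (pNK) and 31780925 (uNK), of which listed miRNAs took 47.5% and 37.4%. Folds are ratios of RPM recomputed from the counts, with no pseudocount; a count of 0 was set to a floor of 3 reads. Reads carry no stated molecular identifiers, and intervals and floors therefore describe counting error alone. The script for ratios was tested on simulated data. All members were named; the miRNAs most alike were the 3 nearest in log2 ratio, and of each marker list the most abundant was named; miRNAs of the same seed were not looked for. The members and lists were chosen with earlier results of these data known. Alternatives were other scalings (listed totals, median ratio, TMM in edgeR 4.0.16, the authors' log2 ratio), pseudocounts, count filters and summed arms. Python 3.11.15, numpy 2.4.6, pandas 2.3.3, scipy 1.17.1, matplotlib 3.10.9 and R 4.3.3 were used.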

Additional observations from a re-analysis of the deposited data

How the results depend on the processing

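No paired analysis was possible because uNK and pNK had 1 library each, and none could be left out. No member changed direction under any of the scalings run, but the authors' filter had left no absolute log2 ratio under 1.01. A pseudocount that is equal in both libraries cannot change a direction. The unchanged directions therefore say little about how firm the differences are. Scaling to the listed totals shifted every log2 ratio by 0.35. Centring on the median ratio shifted it by -0.67, and TMM shifted it by 0.74, each computed only on miRNAs called different. Where both libraries had reads, the authors' log2 ratio also lay 0.35 above that of RPM, so it is nearly the scaling to listed totals and not a separate check. Over these and the pseudocounts the log2 ratio ranged from -9.88 to -8.47 for miR-150, from -3.92 to -2.51 for miR-155-5p, from -4.55 to -3.14 for miR-342-3p, from -3.20 to -1.67 for miR-342-5p, from 0.31 to 1.72 for miR-181c-5p and from 0.93 to 2.34 for miR-181d. The median over the 8 was -2.89, and became -3.56 with the median ratio, -2.15 with TMM, -1.89 with a pseudocount of 1 RPM, -1.07 with 5 RPM, -2.38 with arms summed and -3.54 with families summed. The pseudocounts pull low members towards 0, miR-342-5p to -1.67, miR-155-3p to -0.47 and miR-181b-3p to -0.07 at 5 RPM. With families summed, 3 were lower and 1 higher in uNK, as fewer units are counted. Among annotated miRNAs only, 144 were lower in place of 366, because predicted miRNAs are left out. The arm difference of miR-342 was 1.34 log2 units and 1.35 with 0.5 counts added; that of miR-155 was 1.73 and 1.42, and its 3p arm was too low for the filter of 100 reads. Leaving out the 2 members with at most 3 reads in a library, chosen after the data were seen, left the median at -2.89. Depth limits miR-155-3p and miR-181b-3p most, and miR-342-5p, with 134 reads in uNK, to a lesser degree.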
